A study of Mus musculus with 6 samples.

Results

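The cells described here are the 295 cells that carry the annotation Myeloid in the cell table deposited with the study, pass its quality control and have a column of counts. They were kept apart by library, and they made up 67 of the 12253 annotated cells of the control library and 228 of the 9701 annotated cells of the DES library. The study exposed female CD-1 mice to corn oil (CO) or to the synthetic estrogen diethylstilbestrol (DES) at 1 mg/kg/day by injection on neonatal days 1 to 5, and collected uteri at 12 months of age, when the CO mice were taken in estrus and the DES mice were in persistent estrus. Single cells came from the pooled uterine horns of 2 CO mice and of 4 DES mice, released with trypsin-EDTA, so each condition was 1 library and had no replicate. Spatial transcriptomes came from 4 frozen uterine sections, 2 of CO and 2 of DES mice with 1 mouse each, cut from blocks that were cored to areas of interest. The study picked 2 mice a group after a pathologist assessed epithelium in both groups and adenocarcinoma in the DES tissue. Section contrasts therefore set DES tissue screened for cancer against CO tissue. The study reports a substantial tissue fold in CO section B and limited cluster identification in DES section B. Every interval on a single-cell value covers counting error only at 95%, and differences between the CO and DES cells were not tested.

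Macrophages are the tissue phagocytes of the myeloid lineage, and their survival depends on the receptor CSF1R and its ligands CSF1 and IL-34. Many resident macrophages make C1q, the recognition component of the classical complement pathway, which is assembled from A, B and C chains and binds immune complexes and dying cells. In the uterus they lie in endometrium and myometrium, clear dying cells and present antigen, and their numbers and states follow ovarian hormones.

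The CO myeloid cells held 3351 to 33033 unique molecular identifiers (UMIs, counted transcript molecules), with a median of 7161, and 616211 in all. The DES myeloid cells held 1009 to 34187, with a median of 8647.5, and 2039522 in all. Medians of detected genes were 2392 and 2342.5, and the median mitochondrial shares were 6.20% and 6.997%. Libraries shared 180 cell barcodes, among them 1 of a CO and 4 of DES myeloid cells. One feature set CO cells apart before any comparison. Of the 67 CO myeloid cells, 11 carried 51 to 408 UMIs of Dcn (decorin, a matrix proteoglycan that 98.4% of CO mesothelial and 95.2% of CO stromal cells held at over 20 UMIs), while the other 56 carried 0 to 5. Among the 228 DES cells, 1 carried 56 and the rest 0 to 11. These 11 cells held 32.8% of all CO myeloid UMIs, so many ratios are given with all cells and again without the cells over 20 Dcn UMIs, a split that was chosen after seeing the data. Values not marked as without those cells are for all cells, and a value given only so may depend on them.

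Levels are given as CPM, the UMIs of a gene scaled to a total of 1000000 over the summed UMIs of a class. The genes of the A, B and C chains of C1q lie side by side on the minus strand of chromosome 4 in GRCm38, C1qb at chr4:136880129-136886187, C1qc at chr4:136889804-136893065 and C1qa at chr4:136895917-136898803. The 250 bases before the RefSeq start (GRCm38.p6) of C1qb and C1qc are shown because these genes define the cells. Those of Lyz2 are shown because it does not separate them from other immune cells. Those of Retnla are shown because it had UMIs in CO but not in DES myeloid cells, though most of its CO UMIs lay in a single cell. Capitals mark AGGAAGT read on the opposite strand (ACTTCCT), a core of the kind bound by ETS factors such as PU.1, the macrophage lineage factor encoded by Spi1.
C1qb (chr4:136886201-136886450, minus strand): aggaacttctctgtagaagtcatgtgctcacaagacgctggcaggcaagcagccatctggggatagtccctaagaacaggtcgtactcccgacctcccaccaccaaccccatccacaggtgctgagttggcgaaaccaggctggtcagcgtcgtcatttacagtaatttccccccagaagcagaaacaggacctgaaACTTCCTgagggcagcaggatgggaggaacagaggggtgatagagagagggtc
C1qc (chr4:136892915-136893164, minus strand): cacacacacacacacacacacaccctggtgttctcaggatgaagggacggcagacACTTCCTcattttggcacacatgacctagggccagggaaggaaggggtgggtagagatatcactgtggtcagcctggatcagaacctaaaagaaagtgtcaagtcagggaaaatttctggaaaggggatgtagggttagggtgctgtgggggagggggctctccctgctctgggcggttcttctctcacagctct
Lyz2 (chr10:117282273-117282522, minus strand): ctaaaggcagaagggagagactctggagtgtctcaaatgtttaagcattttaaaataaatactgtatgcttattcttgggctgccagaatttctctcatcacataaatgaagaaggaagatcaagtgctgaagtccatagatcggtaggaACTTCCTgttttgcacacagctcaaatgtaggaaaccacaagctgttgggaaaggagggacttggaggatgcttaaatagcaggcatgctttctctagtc
Retnla (chr16:48842359-48842608, plus strand): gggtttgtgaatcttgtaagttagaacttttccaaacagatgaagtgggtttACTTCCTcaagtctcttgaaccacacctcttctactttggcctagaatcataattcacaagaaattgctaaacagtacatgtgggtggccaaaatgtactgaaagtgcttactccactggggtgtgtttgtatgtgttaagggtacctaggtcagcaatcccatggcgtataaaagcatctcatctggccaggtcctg
On either strand these letters occurred in 2525 of 32851 such windows (7.69%), and in a window of 2377 of 27025 genes (8.80%). Of the 21 genes on the macrophage core and C1q lists, 13 had a window and 4 of them held the letters, namely C1qb, C1qc, Lyz2 and Fcgr1. The match describes the letters and was not tied to binding.

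The label was checked against its 6 markers, which were part of the counts that were clustered, so the values describe the class. C1qa was at 4317 CPM (4154 to 4484) in CO and 8780.5 CPM (8652 to 8910.0) in DES myeloid cells, against 103 and 72.5 CPM in the cells annotated Lymphocytes. C1qb was at 2715 and 5321 CPM and C1qc at 2077 and 3484 CPM. All 3 chains were at least 41.8-fold above lymphocytes in both libraries. Csf1r, the CSF1 receptor, was at 319.7 CPM in CO and 506 CPM in DES myeloid cells, 3.34-fold and 1.96-fold above the lymphocytes of the same library. Tyrobp, which encodes the adaptor DAP12, was at 1246 and 2788 CPM, close to the 1133 and 1995 CPM of lymphocytes. Lyz2, the lysozyme gene of phagocytes, was at 1889 and 7881 CPM and thus below lymphocytes at 3121 and 8351 CPM. Lyz2 and Tyrobp did not set the class apart from Lymphocytes, whereas the C1q genes did. Only 38.1% of CO and 59.8% of DES cells annotated Lymphocytes held a Lyz2 UMI, so the level of that class averages cells with and without it.

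**Figure D1:**
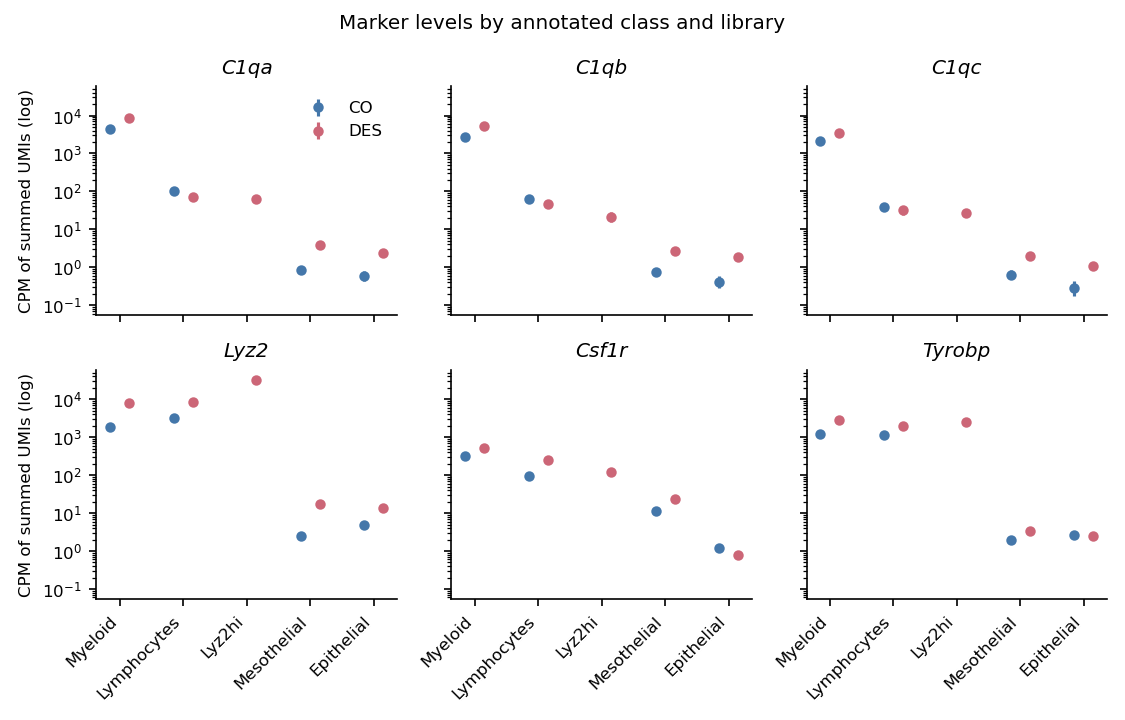
CPM (log axis) of the 6 markers in 5 annotated classes of the CO (blue) and DES (red) libraries, with exact Poisson 95% intervals that are often smaller than the points; Lyz2hi stands for the DES-Myeloid-Lyz2hi class, which has DES cells only. The C1q genes were lower in the class annotated Lymphocytes, at 103 CPM of C1qa in CO and 72.5 in DES. Lyz2 was at 3121 and 8351 CPM in that class, with UMIs in 38.1% of its CO and 59.8% of its DES cells.

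After each cell was thinned to 3000 UMIs, which left all 67 CO and 218 of the DES cells, C1qa was found in 100% and 99.1% of cells, C1qb in 97.0% and 99.1%, and C1qc in 100% and 99.5%. Tyrobp was found in 94.0% and 100%, Lyz2 in 76.1% and 95.4%, and Csf1r in 64.2% and 76.6%. Without thinning the shares were 82.1% and 96.5% for Lyz2 and 85.1% and 95.2% for Csf1r. The background was lower, since C1qa was seen in 0.156% of CO and 0.731% of DES epithelial cells thinned alike, and their median depths of 23458 and 21900 UMIs were above those of the myeloid cells. Ms4a7, which encodes a macrophage membrane protein, Cd72, Fcrls, C3ar1 (the receptor for complement C3a) and the chemokine genes Ccl3, Ccl4 and Ccl12 followed the C1q genes among those most specific to the class against all other annotated cells. Against lymphocytes alone, Rab3il1, Hpgds and Apoe joined them. Ms4a7 was at 607 and 1977 CPM in CO and DES myeloid cells and at 10.2 and 5.37 CPM in lymphocytes.

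A smaller class annotated DES-Myeloid-Lyz2hi held 136 DES cells and no CO cell. Its Lyz2 level was 31833 CPM and its C1qa level 63.7 CPM, below that of DES lymphocytes, so these cells shared Lyz2 but not C1q with the myeloid cells.

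Myeloid cells were 0.547% of annotated CO cells (0.424 to 0.694, exact Clopper-Pearson) and 2.35% of annotated DES cells (2.06 to 2.67). Choosing cells by C1q counts instead, with more than 1 UMI of at least 2 chains, gave 0.645% and 2.68% of annotated cells. All 67 CO and 225 of the 228 DES members met that rule. It also took in 21 epithelial and 9 mesothelial cells of the DES library, against 0 and 3 of the CO library, and 8 CO and 3 DES lymphocytes. The DES share was higher than the CO share under each of the member rules and filters tried. The lowest depth of an annotated cell was 2196 UMIs in CO and 1009 UMIs in DES, and no filter tried made these floors equal. Shares depend on what else was released and annotated, and the DES library held 5 endothelial cells and 1 stromal cell against 341 and 1326 in CO. Each share comes from 1 pool, so the spread between mice is not known.

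The 11 CO cells with Dcn differed from other CO myeloid cells in several values. They held 10819 to 33033 UMIs and 3618 to 6304 genes, against 3351 to 18974 UMIs and 1545 to 4435 genes in the other 56. They carried 10 to 78 UMIs of the 8 mesothelial list genes, such as the mesothelial genes Upk3b and Msln, against 0 to 3. Their C1q UMIs numbered 22 to 117, within the range of 12 to 205 in the others, so each cell held both sets of transcripts. Scrublet, a doublet caller, marked 1 of the 11. The methods of the study state that potential doublets were removed, though the counts used here also hold cells without an annotated type, and whether these cells are pairs was not tested. Over all myeloid cells the mesothelial list summed to 852 CPM in CO and 73.5 CPM in DES, and to 79.7 CPM in CO without the cells over 20 Dcn UMIs. The stromal and smooth muscle list, Dcn included, summed to 5849 CPM in CO and 298 CPM in DES, and all 6 of its genes over 50 CPM were at least 2-fold lower, as were 2 of 3 without the cells over 20 Dcn UMIs, where it summed to 541 CPM in CO. The 8 epithelial list genes, such as Epcam and Krt8, summed to 1239.8 CPM in CO and 518 CPM in DES, with 5 of the 6 over 50 CPM at least 2-fold lower in both settings. None of the 7 endothelial and pericyte or 15 eosinophil and mast cell genes was over 50 CPM, and 1 of the 23 T, NK, B and plasma cell genes was. The part of these transcripts in the ratios was not tested beyond leaving out cells.

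**Figure D2:**
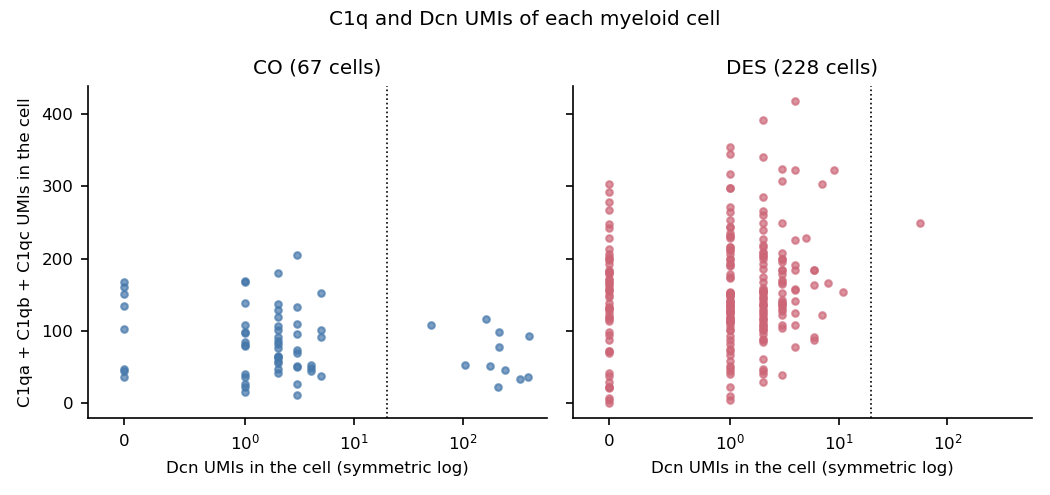
UMIs of Dcn (x axis, symmetric log) and of C1qa, C1qb and C1qc together (y axis) in each myeloid cell of the CO (left) and DES (right) libraries; the dotted line marks 20 Dcn UMIs. To the right of the line lie 11 CO cells with 51 to 408 Dcn UMIs and 1 DES cell with 56.

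Among the 3199 genes at 50 CPM or more in the myeloid cells of either library, 155 (4.85%) were at least 2-fold higher in DES and 500 (15.6%) at least 2-fold lower, with a median log2 ratio of -0.31. These shares are the background for each list count given for the cells. Without the cells over 20 Dcn UMIs, 126 of 3037 genes (4.15%) were higher and 358 (11.8%) lower, with a median of -0.26. Taking the 20 most abundant genes out of the totals gave 289 higher and 482 lower of 3852 genes and moved the median to -0.14, so ratios are to be read relative to such a shift. The settings with and without the Dcn cells shared 101 of the higher and 248 of the lower genes. Of the 500 lower genes, 187 were at least 2-fold higher in CO mesothelial than in CO myeloid cells, against 28 of the 358. The lowest ratios by the naming rule were those of S100a4, Folr2, Timp3, Col5a2, Col1a2, Ccr2, Cav1, Col6a3, Bicc1 and Serpinh1, of which Folr2 and Ccr2 were at 0.241 and 0.421 CPM in CO mesothelial cells while S100a4, Timp3, Col5a2, Col1a2, Cav1, Col6a3, Bicc1 and Serpinh1 were at 111 CPM or more there. Without the cells over 20 Dcn UMIs these 8 genes had ratios of 0.0210 to 0.307. Col1a2, a collagen I chain, was at 402 and 11.3 CPM, a ratio of 0.0280 that became 0.215 without the cells over 20 Dcn UMIs.

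Among the genes with the highest DES to CO ratios were H2-M2, Cyp4f18, Fabp5, Hvcn1, Gdf15, Apoe, Mt2, RP24-64D24.4 and Trem2. H2-M2, a nonclassical class I gene of a multigene family whose reads may be shared, was at 6.49 and 163 CPM, a ratio of 25.2 (9.73 to 92.9), with DES UMIs in 51 of 228 cells. Gdf15, a stress-induced cytokine, was at 74.6 and 452 CPM, a ratio of 6.05 (4.50 to 8.32). Each of these stayed at least 2-fold higher without the cells over 20 Dcn UMIs.

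**Figure D3:**
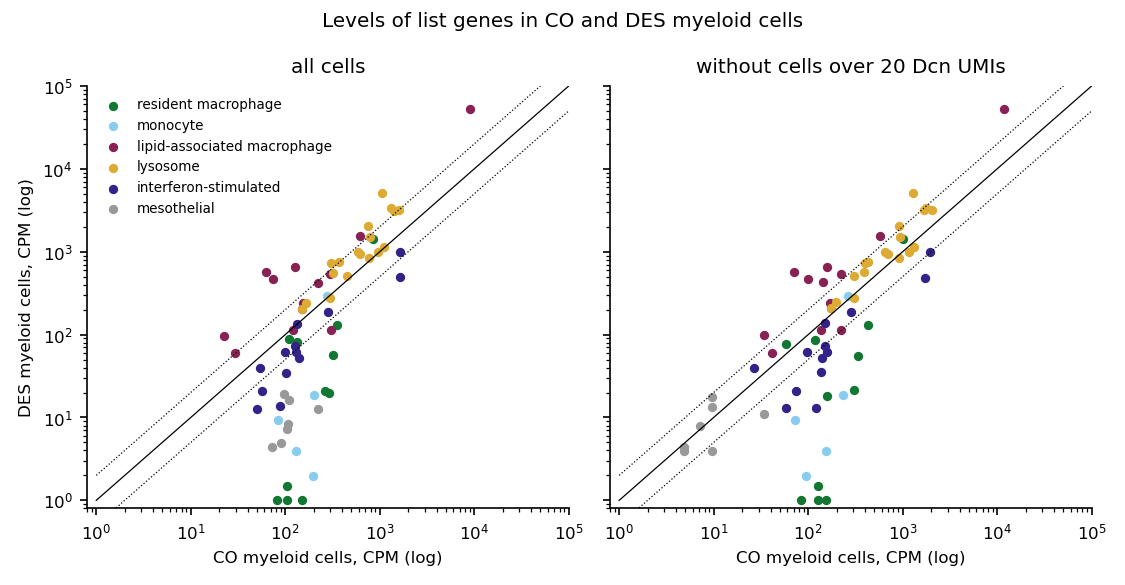
CPM in CO (x) and DES (y) myeloid cells, both on log axes, of members of 6 gene lists at 50 CPM or more in either library, with all cells (left) and without cells over 20 Dcn UMIs (right); values under 1 CPM are drawn at 1, the solid line is equality and the dotted lines are 2-fold. Lipid-associated and lysosome genes lay mostly above the line and resident macrophage, monocyte and interferon-stimulated genes mostly below; mesothelial genes moved from below the line to low CO levels when the cells over 20 Dcn UMIs were left out.

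Of the 17 macrophage core genes over 50 CPM, 4 were at least 2-fold higher in DES, 12 lay between and 1 was lower, with a median log2 ratio of 0.61 that was 0.29 without the cells over 20 Dcn UMIs, where 1 was higher and 1 lower, beside -0.31 and -0.26 for all genes. Adgre1, which encodes F4/80, was at 396 and 443 CPM, a ratio of 1.12 (0.971 to 1.29). Cx3cr1, the fractalkine receptor, was at 364 and 553 CPM. The lineage factor gene Spi1 was at 195 and 347 CPM. Maf, which encodes c-Maf, a factor of resident macrophages, went the other way, with 364 CPM in CO and 109.8 CPM in DES, and the ratio of 0.302 (0.2499 to 0.365) was 0.309 without the cells over 20 Dcn UMIs. Among the markers the ratios were 2.03 for C1qa, 1.96 for C1qb, 1.68 for C1qc, 4.17 for Lyz2, 1.58 for Csf1r and 2.24 for Tyrobp. Without the cells over 20 Dcn UMIs they were 1.58, 1.502, 1.31, 3.11, 1.36 and 1.75, so that only Lyz2 of the 6 remained over 2-fold. With the DES-Myeloid-Lyz2hi cells added to the class, only 2 of the 6 markers had a higher CPM in DES, and the ratio of C1qa was 0.980.

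Of the 13 lipid-associated macrophage genes over 50 CPM, 7 were at least 2-fold higher in DES myeloid cells, 5 lay between and 1 (Lpl, lipoprotein lipase) was lower, with a median log2 ratio of 1.03, and without the cells over 20 Dcn UMIs 8 were higher and 0 lower. Apoe, the apolipoprotein E gene, was at 8973 CPM (8738 to 9212) in CO and 53103 CPM (52787 to 53420.3) in DES, a ratio of 5.92 (4.50 without the cells over 20 Dcn UMIs), and was the most abundant transcript of the DES cells. In single CO cells Apoe ran from 0 to 764 UMIs per 10000 with a median of 52.4, and in DES cells from 0 to 1612 with a median of 512, so the ranges overlapped while the 10th percentile of DES cells, 119, lay above the CO median. Trem2, a lipid-sensing receptor that signals through DAP12, was at 128 and 654 CPM and was found in 31.3% of CO and 79.4% of DES cells at 3000 UMIs. Fabp5, a fatty acid binding protein gene, was at 63.3 and 571 CPM, and was found in 17.9% and 34.9%. Cd63, a late endosome tetraspanin gene, was at 615 and 1545 CPM. Spp1 (osteopontin) was at 74.6 and 467 CPM, but 1 DES cell held 68.5% of its DES UMIs, and it was found in 16.4% and 19.3% of cells. Lpl was at 302 and 115 CPM, a ratio of 0.380 that turned to 2.28 with the DES-Myeloid-Lyz2hi cells added. Lymphocytes of the same libraries had 554 and 1424 CPM of Apoe and 4.45 and 44.98 CPM of Trem2.

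Of the 18 lysosomal genes over 50 CPM, 6 were at least 2-fold higher in DES, 12 lay between and 0 were lower with all cells, with a median log2 ratio of 0.77, and 2 of the 6, Ctsd and Ctsz, still were higher without the cells over 20 Dcn UMIs. Ctsd, the protease cathepsin D, was at 1056 CPM (977 to 1141) in CO and 5057 CPM (4959 to 5155) in DES, a ratio of 4.79 that was 3.99 without those cells and 0.924 in lymphocytes. Ctsz was at 746 and 2044 CPM, and Ctsb at 1428 and 3144 CPM. Lgmn, which encodes legumain, was alike at 1107 and 1128 CPM. Cst3, the cathepsin inhibitor cystatin C, was at 3593 and 16184 CPM, and its median per cell was 27.5 and 159 UMIs per 10000.

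For antigen presentation, 2 of 8 class II pathway genes over 50 CPM, Cd74 and Ctss, were at least 2-fold higher in DES and 0 lower. Neither was 2-fold higher without the cells over 20 Dcn UMIs, where the list's median log2 ratio moved from 0.73 to 0.27. Cd74, the invariant chain, was at 4404 and 10969 CPM, a ratio of 2.49 that became 1.79. The class II chain genes did not move together, with H2-Ab1 at 1391 and 2638 CPM, H2-Aa at 2006 and 3141 CPM, and H2-Eb1 at 1175 and 1037 CPM, for ratios of 1.90, 1.57 and 0.883. H2-Aa was at 0 in 13 CO and 21 DES cells, and reached 180 and 162 UMIs per 10000 in the highest cells. Of the 11 Fc receptor and adaptor genes, 4 were higher and 1 lower with all cells and 1 was higher and 1 lower without the cells over 20 Dcn UMIs. Fcgr3 at 154 and 380.0 CPM and Fcgr4 at 185 and 71.6 CPM differed in opposite directions, the first by a ratio of 2.46 that was 1.86 without the cells over 20 Dcn UMIs. Of the 12 complement genes over 50 CPM, C1q chains included, 5 were at least 2-fold lower, C2, C3, C4b and Cfp among them, and 1 higher (C1qa). Cfp, which encodes properdin and is a leukocyte product, was at 175 and 19.1 CPM with a ratio of 0.0909 without the cells over 20 Dcn UMIs, whereas C2 went from a ratio of 0.101 to 1.54.

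Inflammatory cytokine genes were present in both libraries. Of 16 over 50 CPM, 3 were at least 2-fold higher in DES (Il1b, Osm and Tnfaip2) and 1 lower (Il12b), with a median log2 ratio of 0.37. Without the cells over 20 Dcn UMIs 1 of 15 was higher and 1 lower, with a median of 0.17. Il1b, the interleukin-1 beta gene, was at 2225 and 4532 CPM, a ratio of 2.04 that was 1.54 without the cells over 20 Dcn UMIs, and was at 0 in 13 of 67 CO and 35 of 228 DES cells. With the DES-Myeloid-Lyz2hi cells added its ratio was 0.987. In whole sections Il1b was at 2.24 and 0.816 CPM in CO and at 43.9 and 6.78 CPM in DES, beside 135 and 223 CPM of C1qa in CO. The part of cell release in its level in the cells was not tested. Tnf was at 453 and 699.7 CPM. Osm, oncostatin M, was at 84.4 and 206 CPM. Oxidative burst genes had 2 of 6 higher, among them Cyba at 737 and 1707 CPM, while Cybb was at 505 and 642 CPM. The ratio of Cyba was 1.82 without the cells over 20 Dcn UMIs.

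Chemokine genes divided. None of 15 over 50 CPM was 2-fold higher and 5 were at least 2-fold lower (Ccl7, Ccl8, Ccl9, Ccl12 and Pf4), with a median log2 ratio of -0.20. Leaving out the cells over 20 Dcn UMIs gave 0 higher and 6 lower of 15, with a median of -0.51. Ccl8, a chemokine gene of resident macrophages, was at 941 CPM (866 to 1021) in CO and 46.6 CPM (37.7 to 56.9) in DES, 20.2-fold lower. At 3000 UMIs it was found in 32.8% of CO and 5.96% of DES cells. Ccl7, which draws monocytes, was at 669 and 82.4 CPM, with 29.2% of its DES UMIs in 1 cell. Ccl12 was at 482 and 192 CPM. Ccl3 and Ccl4, macrophage inflammatory chemokines, were at 979 and 1819 CPM and at 3825 and 5646 CPM, and Cxcl2, which draws neutrophils, at 2188 and 2050.5 CPM. Whole sections, which were not dissociated, held little of these beside 135 and 223 CPM of C1qa in CO. Ccl3 was at 0.800 and 0.906 CPM in CO sections, Ccl4 at 2.32 and 3.63 CPM and Cxcl2 at 0.160 and 0.181 CPM. In DES sections they were at 9.76 and 5.67, 9.54 and 5.67, and 9.65 and 0.709 CPM. The part of cell release in the levels of the cells was not tested. The receptor gene Cxcr4 was at 146 and 392 CPM.

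Of 16 listed resident macrophage genes, 11 were over 50 CPM, and 8 of these were at least 2-fold lower and 0 higher, with a median log2 ratio of -3.66 that was -3.10 without the cells over 20 Dcn UMIs. Lyve1, the hyaluronan receptor of perivascular macrophages, was at 81.1 CPM in CO and had 0 UMIs in DES, at least 55.2-fold lower by a floor of 3 UMIs over the group. Cd209f, a C-type lectin gene, was at 105 CPM and 0, at least 71.7-fold lower by the same floor. Folr2, the folate receptor beta gene, was at 104 CPM (80.0 to 133) and 1.47 CPM (0.303 to 4.30), a ratio of 0.0142 (0.00285 to 0.0433) from 3 DES UMIs. F13a1, which encodes coagulation factor XIII A, was at 149 and 0.981 CPM, a ratio of 0.00657 (0.000784 to 0.0244) from 2 DES UMIs. That ratio was below S100a4's, yet the naming rule left F13a1 out, as it does genes with over 20% of UMIs in 1 cell. Mrc1, the mannose receptor gene, was at 319.7 and 56.4 CPM, 5.67-fold lower, and Cbr2 at 354 and 129 CPM, a ratio of 0.365 that turned to 1.91 when members were chosen by the C1q count rule. That rule also took in 21 epithelial cells in DES and 0 in CO, and their part in the turn was not tested. Pf4 was at 266 and 21.1 CPM and Gas6, a bridge to dying cells, at 290.5 and 19.6 CPM, 14.8-fold lower and 8.57-fold without the cells over 20 Dcn UMIs. Sepp1, the selenoprotein P gene, was higher in DES at 858 and 1424 CPM. Cbr2 was more abundant in whole sections than in the myeloid cells, at 3218 and 1112 CPM in CO and 2837 and 3017 CPM in DES sections.

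Lyve1, Folr2, Cd209f and F13a1 were found in 7 to 19 of the 67 CO cells, whereas Cbr2 and Sepp1 were each found in 56. Of the 67 CO myeloid cells, 13 (19.4%, 10.8 to 30.9) held UMIs of at least 2 of Lyve1, Folr2, Cd209f and F13a1, a set picked after the values were seen, and 4 of the 13 were over 20 Dcn UMIs. None of the 228 DES cells did, which allows a share of up to 1.32% by a limit of 3 cells and 1.60% by the exact interval, for cells with UMIs of these low-count genes. The genes had few or no DES UMIs when picked, so this count followed from the choice and bounds no resident class. The 13 cells had Mrc1 UMIs in 12, Pf4 in 12 and Ccl8 in 12, against 21, 14 and 15 of the other 54. Their median H2-Aa was 1.05 UMIs per 10000 against 6.30, their median Lyz2 21.6 against 6.08, and their median C1qa 49.8 against 48.2. At 3000 UMIs, Folr2 was found in 17.9% of CO and 0% of DES cells and Mrc1 in 34.3% and 12.4%.

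Of 16 monocyte genes 5 were over 50 CPM, and 4 of these were at least 2-fold lower and 0 higher. Of 15 alternative activation genes 5 were over 50 CPM, and 3 of these (Retnla, Mrc1 and Il4ra) were lower and 0 higher. Leaving out the cells over 20 Dcn UMIs gave 5 lower of 7 monocyte genes and 4 lower of 6 alternative activation genes, with 0 higher in both lists. Ccr2, the monocyte chemokine receptor gene, was at 131 CPM (104 to 163) in CO, in 22 of 67 cells, and at 3.92 CPM (1.69 to 7.73) in DES, in 5 of 228 cells. Plac8 was at 203 and 18.6 CPM, while whole sections held more of it, at 1009 and 796 CPM in CO and 208 and 438 CPM in DES. S100a4, also a mesothelial transcript here, was at 195 and 1.96 CPM, 99.3-fold lower and 47.6-fold without the cells over 20 Dcn UMIs. The cells annotated Lymphocytes also carried myeloid transcripts, with UMIs of Lyz2 in 59.8% and of Csf1r in 43.9% of DES cells, and S100a9 at 3613 CPM and Chil3 at 354 CPM in DES. In that class these 3 genes had higher values in DES, with Ccr2 at 283 and 441 CPM, Plac8 at 888 and 1662 CPM and S100a4 at 399 and 1121 CPM. Retnla, the resistin-like alpha gene of alternatively activated macrophages, was at 547 CPM in CO and had 0 UMIs in DES, at least 372-fold lower by the floor of 3 UMIs. Its CO UMIs lay in 7 of 67 cells, with 62.0% in 1 cell. CO lymphocytes had it at 628 CPM and DES lymphocytes at 0.671 CPM. Of 8 efferocytosis and scavenger receptor genes over 50 CPM, 4 were at least 2-fold lower and 1 higher. Among the lower ones, Cd36 and Msr1 were at 92.5 and 3.92 CPM and at 94.1 and 27.5 CPM.

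Of 13 interferon-stimulated genes over 50 CPM, 7 were at least 2-fold lower in DES, 6 lay between and 0 were higher, with a median log2 ratio of -1.09, and without the cells over 20 Dcn UMIs 9 of 14 were lower. Ifitm3, an antiviral membrane protein gene, was at 1631 CPM (1532 to 1735) and 493 CPM (463 to 525), and was found in 92.5% of CO and 68.3% of DES cells at 3000 UMIs. Irf7, the interferon response factor, was at 102 and 34.8 CPM, while Isg15 was alike at 135 and 135 CPM. Of 10 cell cycle genes over 50 CPM, 4 were at least 2-fold lower and 0 higher, and 6 of 11 were lower and 0 higher without the cells over 20 Dcn UMIs. Top2a, a mitotic topoisomerase gene, was at 138 and 54.4 CPM and was found in 19.4% of CO and 5.96% of DES cells at 3000 UMIs, and Mki67 in 19.4% and 7.34%. Cells with UMIs of at least 3 of Mki67, Top2a, Birc5, Ccnb1 and Cdk1 numbered 14 of 67 in CO (20.9%, 11.9 to 32.6) and 15 of 228 in DES (6.58%, 3.73 to 10.6).

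**Figure D4:**
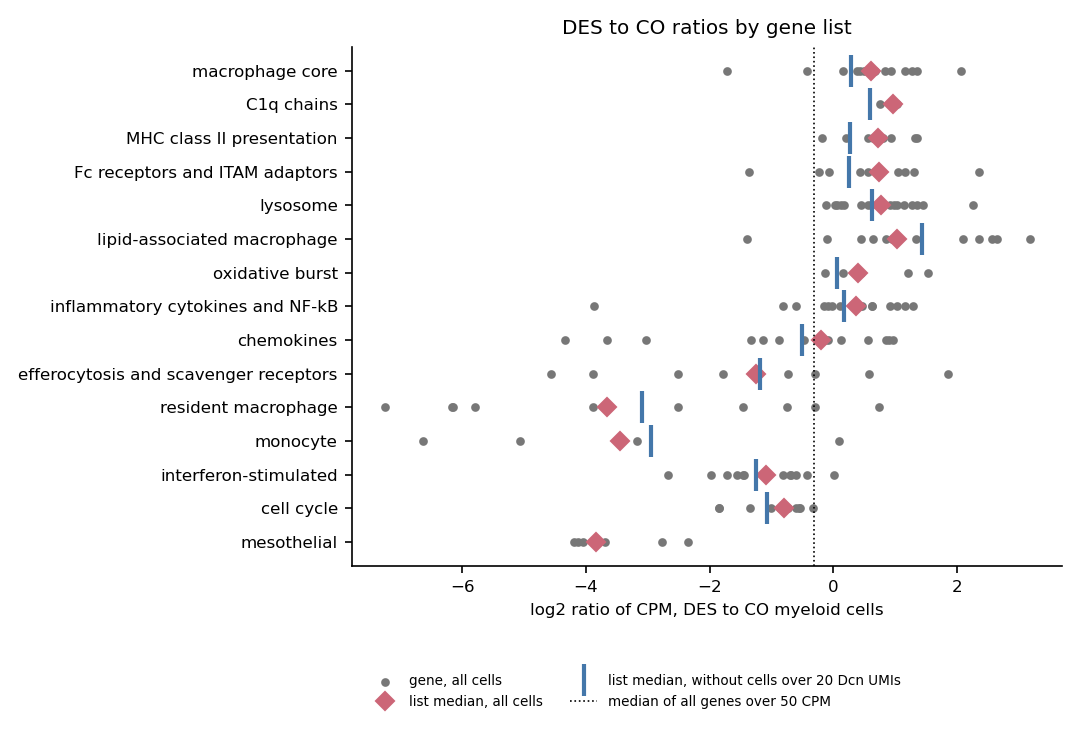
Log2 ratio of CPM, DES to CO myeloid cells, of each gene over 50 CPM (grey), the median of each list with all cells (red diamond) and without cells over 20 Dcn UMIs (blue bar), and the median of all genes (dotted line at -0.31); genes without DES UMIs are drawn at their floor. Medians of the lists drawn ran from 1.03 for lipid-associated genes to -3.84 for mesothelial genes, which had no member over 50 CPM once the cells over 20 Dcn UMIs were left out.

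Transcripts of the ligands were found in other annotated cells. Csf1 was at 79.7 CPM in CO and 82.9 CPM in DES mesothelial cells, 26.9 CPM in CO stromal cells and 6.24 and 2.67 CPM in epithelial cells. In the myeloid cells themselves it had 14 and 11 UMIs (22.7 and 5.39 CPM), and the ratio of 0.237 was 1.02 without the cells over 20 Dcn UMIs. Il34 was at 11.3 CPM (3.09 to 29.1) in CO pericytes, from 4 UMIs, at 3.97 and 3.82 CPM in mesothelial cells and at 0 UMIs in DES myeloid cells. Cx3cl1, the ligand of CX3CR1, was highest in epithelial cells among these classes, at 15.2 and 19.2 CPM. Csf1r itself was at 11.3 and 23.9 CPM in mesothelial cells against 1.17 and 0.800 CPM in epithelial cells.

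Whole sections gave a replicated measure of the same genes in tissue that had not been dissociated. The 4 sections held 9117099 to 12506177 UMIs over 1357 to 1834 spots, and fewer cells of a type and less RNA per cell cannot be told apart in them. Of 14098 genes tested with edgeR, 376 (2.67%) were higher and 371 (2.63%) lower in DES at an adjusted p under 0.05. C1qa was at 135 and 223 CPM in the CO sections and at 375 and 280.2 CPM in the DES sections, C1qb at 91.2 and 150.1 against 229 and 182, and C1qc at 82.0 and 132 against 204 and 153. Lyz2 was at 121 and 321 against 1499.9 and 738 CPM, Csf1r at 22.1 and 42.4 against 80.2 and 50.9 CPM, and Tyrobp at 82.8 and 149 against 312 and 199 CPM. Both DES sections lay above both CO sections for all 6 markers, yet none passed the edgeR test with all 4 sections. For C1qa the log2 fold change was 0.66 (SE 0.29, adjusted p = 0.25, edgeR) and for Lyz2 2.13 (adjusted p = 0.11, edgeR). CO section B held the higher CO value of all 6 markers, so leaving it out widens each difference in CPM. With DESeq2 on all 4 sections Lyz2 alone of the 6 passed. Without DES section A or B none passed, with adjusted p = 0.81 or 0.56 for C1qa and 0.38 or 0.19 for Lyz2 by edgeR.

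Of the 34 macrophage core, C1q and resident genes tested in the sections, 1 was higher and 1 lower, near the shares of 2.67% and 2.63% over all genes. Ctss, the cathepsin S gene of antigen processing, was at 53.7 and 80.6 CPM in CO and at 248.5 and 321 CPM in DES (log2 fold change 1.89, SE 0.28, adjusted p = 0.034, edgeR). Maf was at 42.9 and 67.7 CPM in CO and at 22.6 and 18.6 CPM in DES (log2 fold change -1.63, SE 0.26, adjusted p = 0.040, edgeR). Maf was also among the leading genes of a CO section B spot cluster with 3598 CPM of Dcn. The part of each cell type in its section values was not tested. With DESeq2 7 were higher and 1 lower, beside 5.83% and 6.87% of all genes. Both calls were lost when DES section A or DES section B was left out, which left 14 and 3 genes of all those tested higher and 0 lower.

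No resident macrophage gene passed in the sections by edgeR. Gas6 went the other way there, at 103 and 84.8 CPM in CO against 251 and 189.8 CPM in DES sections (log2 fold change 1.02, SE 0.22, adjusted p = 0.069, edgeR), and passed by DESeq2 (adjusted p = 0.0041). Lyve1, which lymphatic endothelium also expresses, was at 9.60 and 5.89 CPM in CO and at 9.43 and 8.198 CPM in DES sections. Mrc1 was at 16.5 and 24.8 against 20.5 and 9.11 CPM, Ccl8 at 144 and 196 against 155 and 89.8 CPM, and Ccr2 at 12.0 and 22.1 against 12.8 and 14.0 CPM, with groups that overlapped. Folr2 was at 12.3 and 20.9 CPM in CO and at 10.9 and 0.506 CPM in DES sections (log2 fold change -1.78, SE 1.11, adjusted p = 0.40, edgeR). Retnla did pass, at 6.88 and 6.71 CPM in CO and 0.110 and 0.101 CPM in DES sections (log2 fold change -6.06, SE 0.48, adjusted p = 0.019, edgeR), and without DES section A or B its adjusted p was 0.082 or 0.093 (edgeR).

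Among the other lists, 9 of 20 interferon-stimulated genes were lower in the DES sections and 0 higher, beside 2.63% lower and 2.67% higher over all genes. Their median log2 fold change was -1.45 beside -0.01 for all genes. Isg15 was at 143 and 122 CPM in CO and 23.1 and 33.2 CPM in DES sections (log2 fold change -2.43, SE 0.27, adjusted p = 0.022, edgeR), though it was alike in the CO and DES myeloid cells. Ifitm3 was at 1406 and 1636 CPM in CO against 881 and 827 CPM in DES sections (log2 fold change -1.04, SE 0.18, adjusted p = 0.048, edgeR). Both genes were at like levels in whole CO sections and in the CO myeloid cells, so their section values were not particular to the class. Of 21 chemokine genes 4 were higher (Ccl3, Ccl6, Cxcl3 and Cxcl13) and 0 lower, beside the same 2.67% and 2.63% over all genes. Among them was Cxcl13, which draws B cells, at 0.560 and 0.544 CPM in CO and 43.5 and 49.8 CPM in DES sections (log2 fold change 6.17, SE 0.27, adjusted p = 0.014, edgeR). In the dissociated myeloid cells Cxcl13 had 4 UMIs in CO and 0 in DES. Ccl6 was higher at 17.4 and 43.5 against 215 and 265 CPM (adjusted p = 0.044, edgeR), while it was lower in DES myeloid cells (425 and 231 CPM) and at 3348 CPM in DES-Myeloid-Lyz2hi cells. Cd74 was at 169.5 and 273 against 872 and 2317 CPM and H2-Aa at 59.6 and 102 against 336 and 651 CPM, with adjusted p = 0.069 and 0.054 by edgeR. By DESeq2 both passed, with adjusted p = 1.6e-06 and 5.1e-07. These section values are not of myeloid cells alone. Among the spot clusters of DES section B, Cd74 was highest at 3044 CPM in one with 592.5 CPM of Epcam and 457 CPM of C1q. In DES section A it was highest at 1377 CPM in a cluster with 242 CPM of Epcam and 1638 CPM of C1q. Apoe was at 449 and 1153 against 3339 and 2585 CPM (adjusted p = 0.12, edgeR) and Trem2 at 12.95 and 28.7 against 71.6 and 28.0 CPM, where the groups overlapped. By DESeq2 Apoe passed (adjusted p = 0.0015) and Trem2 did not (adjusted p = 0.23). Without DES section A or B the adjusted p of Isg15 was 0.13 or 0.095, that of Ifitm3 0.35 or 0.37 and that of Ccl6 0.13 or 0.16 (edgeR), and Cxcl13 missed the threshold without DES section B (adjusted p = 0.052, edgeR). In the same sections 7 of the 12 stromal and smooth muscle genes tested were lower and 0 higher, and of the 20 T, NK, B and plasma cell genes tested 3 were higher and 2 lower (edgeR). Their part in these values was not tested.

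**Figure D5:**
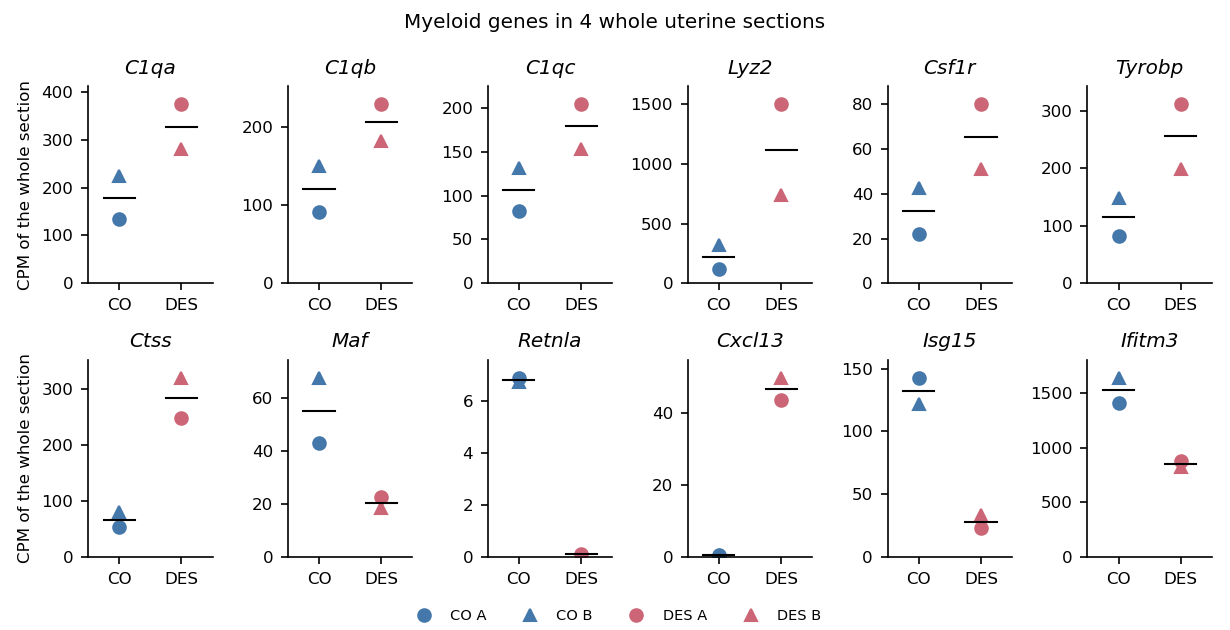
CPM of whole sections from 2 CO (blue) and 2 DES (red) mice, sections A (circles) and B (triangles), with group means as bars, for the 6 markers (top) and 6 further genes (bottom), each axis starting at 0. All 6 markers lay higher in both DES sections without passing the test, while Ctss and Cxcl13 were higher and Maf, Retnla, Isg15 and Ifitm3 lower by edgeR.

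C1q signal was found throughout the sections, with at least 1 C1q UMI in 69.6% and 75.1% of CO spots and in 81.3% and 81.0% of DES spots. By the deposited spot clusters, summed C1q was lowest at 87.1 and 115 CPM in CO clusters with Kap and Sprr genes of the luminal epithelium among their leading genes. It was highest in CO at 1329.5 and 1291 CPM in clusters with the vascular and lymphatic genes Ccl21a and Cldn5 among theirs. In DES, clusters led by epithelial and squamous genes such as Tff1, Krt6a and Krt14 had 393 to 677 CPM. Among DES clusters of at least 40 spots the highest were 1638 CPM in section A and 2323 CPM in section B. The first had the matrix genes Mfap5 and Col1a1 among its leading genes, and the second was led by the adipocyte genes Cfd and Car3. A smaller cluster of 9 spots in DES section A, also led by Cfd and Car3, had 1964 CPM. A cluster of 61 spots in DES section A, led by S100a9, S100a8, Il1b, Spp1 and Mmp12, had 1039 CPM of C1q and 7084 CPM of Lyz2. Spots hold several cells, and the clusters were made in each section apart, so these levels were not tested.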

How the data were processed

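Members were the cells annotated Myeloid in the deposited cell table that passed quality control and had counts, and the cells and lists were chosen with earlier results of these data known. The authors mapped single-cell reads with Cell Ranger 3.0.1 to mm10 with GENCODE genes, screened for swapped barcodes and, per their methods, removed potential doublets, integrated the libraries and annotated clusters. They made the section tables with Space Ranger 1.2.2. The deposited values are raw counts of UMIs per gene and cell or spot, not normalized. The table listed 350 annotated cells without counts, 1 of them myeloid, which were not used.

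UMIs were summed over cells and scaled to CPM (numpy 2.4.6, pandas 2.3.3). Intervals at 95% are exact Poisson for levels, exact Clopper-Pearson for shares and exact conditional binomial for ratios (scipy 1.17.1), and cover counting error only. A gene was called at a ratio of at least 2 or at most 0.5 and at 50 CPM in either library. A group without UMIs was set to a floor of 3 UMIs. Shares of cells used cells thinned to 3000 UMIs. Scrublet ran in scanpy 1.11.5. Sections were summed over spots and tested with edgeR 4.0.16 (quasi-likelihood, TMM, filterByExpr, Benjamini-Hochberg over all tested genes, n = 2 sections a group). DESeq2 1.42.0 was an alternative. The scripts were tested on simulated data.

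Genes were named by rule: the 6 markers, for each list its 4 most abundant members and the 2 members at each end of the ratios, the 10 highest and 10 lowest ratios, and the 10 most specific class genes. The highest and lowest ratios needed 30 UMIs over both groups, an interval clear of 1 and no cell with over 20% of UMIs. Other genes were named after their values were seen. Some genes that the rule names are not reported here.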

Additional observations from a re-analysis of the deposited data

Results flagged for a closer look

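For 8 listed genes over 50 CPM the DES to CO ratio of CPM was at least 2-fold in one direction in myeloid cells and at least 2-fold in the other in lymphocytes, with both counting intervals clear of 1, and the difference was not tested since each condition was 1 library. F13a1 had a ratio of 0.00657 in myeloid cells and 2.09 in lymphocytes, Pf4 one of 0.0792 and 3.62, and S100a4 one of 0.0101 and 2.81. Msr1 had ratios of 0.292 and 2.13, Il12b of 0.0682 and 2.84, Rsad2 of 0.363 and 3.54, and Tgfbi of 0.454 and 2.21. Pdgfb, a platelet-derived growth factor chain, went the other way with 2.24 in myeloid cells and 0.389 in lymphocytes. The class annotated Lymphocytes itself carried myeloid transcripts, with UMIs of Lyz2 in 38.1% of its CO and 59.8% of its DES cells. Which of its cells held the flagged genes was not tested.

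Cells without an annotated type also met the C1q count rule, 72 in CO and 370 in DES. In CO they had a median of 9190.0 UMIs, 21 were over 20 Dcn UMIs and Scrublet marked 9. In DES they had a median of 774 UMIs, 250 held under 1000 UMIs, 18 were over 20 Dcn UMIs and Scrublet marked 36.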

How the results depend on the processing

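The DES share of 2.35% was 3.75% with DES-Myeloid-Lyz2hi cells added, 2.68% by the C1q count rule and 3.86% by that rule over all cells. The 155 genes at least 2-fold higher became 289 with totals without the 20 most abundant genes, 265 at a floor of 20 CPM and 94 at 100 CPM. They became 114 by the C1q count rule, with 51 of the 155 kept, and 196 with the Lyz2hi cells, with 77 kept. The C1q count rule also takes in 21 DES and 0 CO epithelial cells, so its values are not of myeloid cells alone. The 500 lower ones became 327 by the C1q count rule, 1282 at 20 CPM and 204 at 100 CPM. Lists with a median above 0 numbered 16, and 10 by the C1q count rule and 10 with the Lyz2hi cells. Markers with a higher CPM in DES were 6 of 6, and 2 with the Lyz2hi cells, and markers with a higher share of cells were 4 at 3000 UMIs and 2 without thinning. Of the named ratios that were at least 2-fold either way, those that turned were of Cbr2 (1.91 by the C1q count rule), C1qa (0.980), Il1b (0.987) and Lpl (2.28) with the Lyz2hi cells (where C1qb, C1qc and Csf1r, under 2-fold, went to 0.941, 0.808 and 0.961), C2 (1.36) and Mmp12 (0.934) without cells holding a UMI of another type marker, and C2 (1.54), Csf1 (1.02) and Msln (1.84) without the cells over 20 Dcn UMIs. The macrophage core, C1q and resident genes higher in DES sections, 1 by edgeR, were 7 with DESeq2 and 0 to 12 with a section left out, and the lower ones, 1 by edgeR, were 0 with no filter and 0 to 3 with a section left out. Over all genes tested, edgeR called 376 higher and 371 lower, DESeq2 822 and 969, and edgeR without CO section A 1311 and 1508 and without CO section B 1148 and 1188. The cause of these differences was not tested. Each lone section was assumed to vary like the other group. With 1 library a condition, no spread between mice bears on any single-cell value. No paired analysis was possible because the section letters name separate mice in each group and tie no CO section to a DES section.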

Other observations

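Metallothionein genes, which bind zinc and copper, stood out within the oxidative stress list, where 2 of 13 genes over 50 CPM were at least 2-fold higher in DES myeloid cells and 0 lower, with a median log2 ratio of 0.01. Those 2 were Mt1, at 422 and 1869 CPM in CO and DES, and Mt2, at 47.1 and 267 CPM. Iron genes had 1 of 10 higher and 1 lower, beside 4.85% and 15.6% over all genes. Trf, the transferrin gene, was at 255 and 709 CPM, and the ferritin chain genes Fth1 and Ftl1 at 11009 and 20672 CPM and at 6092 and 11223 CPM.

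Steroid receptor transcripts were low, and 3 of 4 over 50 CPM were at least 2-fold lower in DES. Esr1, the estrogen receptor alpha gene, was at 94.1 and 19.1 CPM, a ratio of 0.203 that was 0.361 without the cells over 20 Dcn UMIs, where 1 of the 3 genes of the list over 50 CPM was lower and the median log2 ratio moved from -1.75 to -0.98. Among growth factor genes 4 of 13 were higher and 4 lower. Pdgfa was at 56.8 and 135 CPM, Pdgfb at 64.9 and 145 CPM and Mmp12, a macrophage elastase, at 60.0 and 157 CPM, a ratio of 2.62 that was 0.934 without cells holding a UMI of another type marker. Areg, an EGF receptor ligand, was at 105 and 11.8 CPM with 75.4% of its CO UMIs in 1 cell.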
